A study of Homo sapiens with 12 samples.

Results

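Expression of 10 genes outside the ERBB family was followed across a breast cancer series that set focal adhesion kinase (FAK) inhibitors beside lapatinib. The genes were the co-receptor GFRA1, the receptor kinases RET, KIT, FGFR1, FGFR2, FGFR4, MET and AXL, and the secreted growth factors KITLG and MDK. They were chosen by symbol, from 20044 gene symbols carried singly by a probe, and earlier results on the same arrays were known when they were chosen. Those results had already shown KITLG in the arrays labelled Y15, MDK in both PF04554878 groups and GFRA1 in the arrays labelled lapatinib, each against untreated, so those 4 differences are given below as descriptions with no test.

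The labels name SKBR-3, a human ERBB2-amplified breast cancer line, and give 12 arrays in 6 groups of 2. One group was untreated. The single agents were the FAK inhibitors Y15 and PF04554878 (defactinib), both at 1 µM, and lapatinib at 5 µM. In the remaining groups each FAK inhibitor was combined with lapatinib at the same concentrations. Treatment lasted 24 h in the design text, which does not say how the untreated cells were handled. Y15 and PF04554878 both inhibit FAK, and lapatinib inhibits EGFR and ERBB2. The labels name no vehicle and do not say whether replicates came from separate cultures, so every p-value measures only the spread between these arrays, which may be technical. The RNA protocol speaks of frozen tissue, although the source is given as a cell line.

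Several facts about the arrays touch every result. ESR1, the oestrogen receptor, which SKBR-3 is known to lack, had group means of 9.85 to 10.44 on the log2 scale and was detected on each of the 12 arrays. ERBB2, the other gene read as a check of the line, was also detected on all 12. Its group means of 8.34 to 9.35 lay below those of KRT8, at 12.22 to 13.21. Whether that level goes with an amplified gene was not tested. The groups are therefore called by what the arrays are labelled. The arrays formed 3 sets of 4: untreated with Y15, lapatinib with Y15 plus lapatinib, and PF04554878 with PF04554878 plus lapatinib. Correlation across genes ran from 0.983 to 0.988 between the groups of one set, close to the 0.987 to 0.995 of replicates, and from 0.871 to 0.938 between sets. In any comparison that crosses sets, the treatment and whatever separates the sets cannot be told apart. The comparisons that stay within a set are Y15 with untreated, Y15 plus lapatinib with lapatinib, and PF04554878 plus lapatinib with PF04554878. All 8 luminal epithelial markers were detected, with summed linear signal above background of 25900 to 29900 in untreated, 27600 to 30900 in Y15, 32100 to 32200 in lapatinib, 28300 to 30000 in Y15 plus lapatinib, 40100 to 40500 in PF04554878 and 41400 to 42900 in PF04554878 plus lapatinib. Detected markers of other cells were 2 of 8 for fibroblasts, 1 of 7 for endothelium, 1 of 7 for leukocytes, 0 of 5 for mast cells and 3 of 6 for basal epithelium. Summed basal signal was 313 to 450 in untreated, 516 to 557 in Y15, 896 to 958 in lapatinib, 708 to 717 in Y15 plus lapatinib, 771 to 828 in PF04554878 and 834 to 849 in PF04554878 plus lapatinib. It came from ACTA2, CDH3 and OXTR, while KRT5, KRT14 and MYLK did not pass the filter. For the other types the sums reached at most 72.5, 67.2 and 217 on any array, with DCN, PECAM1 and PTPRC among the markers that did not pass. The part of these markers in the results was not tested. In bulk RNA, fewer cells of a type and less RNA per cell cannot be told apart.

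Receptor tyrosine kinases sit in the cell membrane, pair up when a ligand binds, and phosphorylate each other to start the RAS and PI3K cascades. Cells whose ERBB2 is blocked can draw on other receptors that feed the same cascades, which is why such receptors are called bypass receptors. RET does not bind its ligands directly: a GDNF-family ligand first binds a GFRA co-receptor, and the pair then engages RET. In breast epithelium, RET and GFRA1 are known as genes of oestrogen receptor-positive cancers. KITLG (stem cell factor) is the ligand of KIT, and MDK (midkine) is a heparin-binding growth factor that signals through ALK, PTPRZ1, LRP1 and other surface proteins.

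The array carried 26 probes for the 10 genes. A probe was counted as above background where its log2 intensity passed 6.808, and a probe was tested where at least 2 of the 12 arrays passed. By that filter 14 probes were tested, 6 of them above background on all 12 arrays, while 12 probes were above it on 0 arrays. GFRA1, RET, KITLG, MDK, FGFR4 and MET had at least 1 tested probe. KIT, FGFR1, FGFR2 and AXL had 0. A gene such as MDK, which passed only through the groups where it was high, was bound to differ between groups once it passed, so the shares of tested members that were called are descriptions. Values below are log2 intensities of each gene's brightest probe unless another probe is named, in the replicate order of the labels.

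GFRA1 and RET, the co-receptor and the kinase of the GDNF pathway, are shown first with RefSeq windows of 250 bases that end just before a transcription start, as genes whose values lie far apart between the sets of arrays. The platform lists the brightest GFRA1 probe under another sequence record than the other GFRA1 probes. Which start a probe's transcript uses was not read here. The window of KITLG is shown beside them as the ligand that was lower in all 5 treated groups. In all, 18 starts of 8 members were read, MDK and FGFR1 not among them. Sequences run 5′ to 3′ on the gene's strand, in build GRCh38.p14. Capitals mark the GC box GGGCGG, the TATA box TATAAA and the forkhead motif TGTTTAC, each searched on both strands.
GFRA1 first start, chr10:116274706-116274955, minus strand: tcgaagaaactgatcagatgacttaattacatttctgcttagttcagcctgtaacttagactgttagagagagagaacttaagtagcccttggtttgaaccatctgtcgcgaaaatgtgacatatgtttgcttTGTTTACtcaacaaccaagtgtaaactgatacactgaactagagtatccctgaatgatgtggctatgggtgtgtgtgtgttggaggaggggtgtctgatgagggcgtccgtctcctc
GFRA1 later start, chr10:116272226-116272475, minus strand: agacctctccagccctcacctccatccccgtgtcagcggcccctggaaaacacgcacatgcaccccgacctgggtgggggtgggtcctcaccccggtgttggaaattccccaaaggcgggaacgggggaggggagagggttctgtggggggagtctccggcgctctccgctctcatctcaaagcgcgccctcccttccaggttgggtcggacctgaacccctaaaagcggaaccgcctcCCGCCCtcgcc
RET, chr10:43076819-43077068, plus strand: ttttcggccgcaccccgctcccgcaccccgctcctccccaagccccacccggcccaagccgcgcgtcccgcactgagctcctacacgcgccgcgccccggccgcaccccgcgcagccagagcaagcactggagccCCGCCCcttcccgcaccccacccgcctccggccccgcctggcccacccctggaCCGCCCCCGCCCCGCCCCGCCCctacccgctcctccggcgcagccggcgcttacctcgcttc
KITLG, chr12:88580472-88580721, minus strand: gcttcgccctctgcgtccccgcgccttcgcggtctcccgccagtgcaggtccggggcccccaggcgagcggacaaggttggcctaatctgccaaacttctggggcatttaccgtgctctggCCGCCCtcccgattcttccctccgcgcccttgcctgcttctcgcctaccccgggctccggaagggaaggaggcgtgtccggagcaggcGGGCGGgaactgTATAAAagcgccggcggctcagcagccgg
GFRA1 has 4 starts in the table, and the windows shown are those with a match. The window at the most upstream start held 1 forkhead motif and 0 GC boxes, and the one at the later start shown held 1 GC box and 0 forkhead motifs. The windows of the other 2 starts held 0 of either motif. RET has 2 starts, and the window shown held 5 GC boxes, some of which overlap or abut, while the other held 1. The KITLG window held 2 GC boxes and 1 TATA box. Among 35116 RefSeq windows of the same length, 42.6% held a GC box, 10.7% a TATA box and 2.98% the forkhead motif. The oestrogen receptor motif GGTCA, which 32.6% of windows held, had 0 matches in these 4 windows. The AP-1 motif TGANTCA also had 0 matches in the windows shown and stood in 6.57% of all windows. These matches are letters in a sequence, and no factor's binding was measured.

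GFRA1 binds GDNF and presents it to RET. Its brightest probe, ILMN_1898518, read 10.61 and 10.67 in the untreated arrays, 10.91 and 10.77 with Y15, and 7.18 and 7.36 with lapatinib. It read 7.49 and 7.21 with Y15 plus lapatinib, 9.57 and 9.60 with PF04554878, and 9.80 and 9.99 with PF04554878 plus lapatinib. The 4 arrays labelled with lapatinib alone or with Y15 plus lapatinib were low, and the PF04554878 arrays lay between them and the untreated arrays. The lapatinib mean was 10.3-fold below the untreated mean (log2 difference -3.37 ± 0.11, SE of the fit with 2 arrays a group), a difference already known when the gene was chosen. In order of level the groups ran Y15, untreated, PF04554878 plus lapatinib, PF04554878, Y15 plus lapatinib and lapatinib. Only the last pair of neighbours overlapped.

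Other GFRA1 probes gave another order. ILMN_2334359 read 9.01 and 8.95 in untreated, 9.10 and 9.11 with Y15, 7.08 and 7.01 with lapatinib, and 7.17 and 6.91 with Y15 plus lapatinib. With PF04554878 it read 9.65 and 9.39, and with PF04554878 plus lapatinib 9.60 and 9.41, so all 4 of those arrays lay above the untreated ones. ILMN_1725678 did the same, with 9.13 and 8.72 in untreated against 9.70 and 9.45 with PF04554878 and 9.34 and 9.58 with PF04554878 plus lapatinib. For PF04554878 against untreated, limma with every tested probe as a feature gave 0.54 ± 0.11 and 0.65 ± 0.13 on these probes, while the brightest probe gave -1.06. The probes agreed in sign for lapatinib against untreated, where the other 2 gave -1.93 and -1.98. The fourth probe, ILMN_2253805, was above background on 0 arrays.

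RET is the kinase that GFRA1 serves. Its brightest probe, ILMN_1706301, read 7.83 and 7.58 in untreated, 8.22 and 8.12 with Y15, 6.81 and 6.87 with lapatinib, and 6.86 and 6.78 with Y15 plus lapatinib. It read 10.09 and 10.11 with PF04554878 and 10.74 and 10.80 with PF04554878 plus lapatinib. Both PF04554878 groups stood far above the other 8 arrays, and the 4 arrays of the lapatinib set lay at the background cutoff. Only lapatinib and Y15 plus lapatinib overlapped among neighbours in the order. ILMN_1655610 kept both PF04554878 groups on top, with 8.67 and 8.78 and then 9.47 and 9.28, against 6.95 and 6.87 in untreated. The dimmest probe, ILMN_1666314, was above background only in those groups, at 7.09 and 7.11 and at 7.61 and 7.74.

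**Figure D1:**
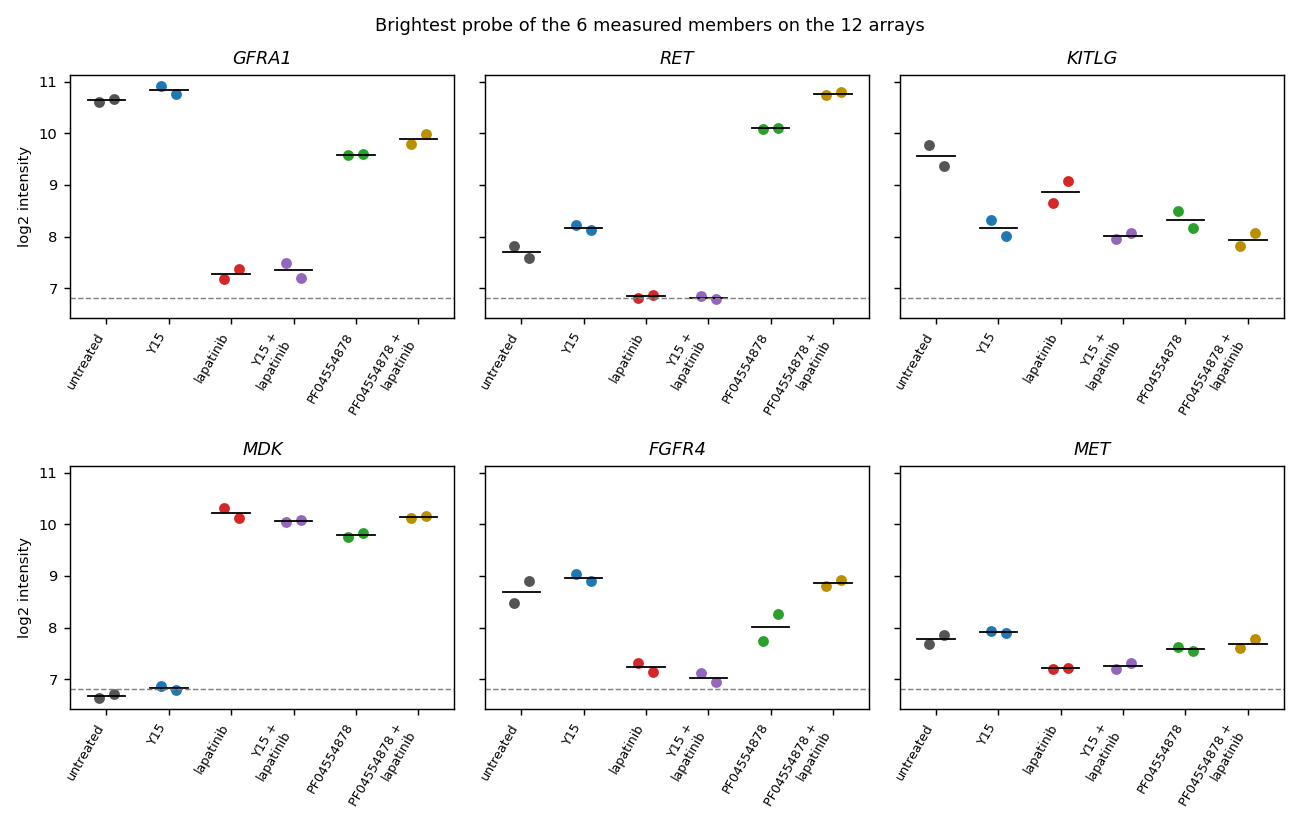
Log2 intensity (vertical axis) of the brightest probe of the 6 tested genes on each of the 12 arrays (points), with the mean of the 2 arrays of each group (black bars) and the background cutoff of 6.808 (dashed line). GFRA1 and FGFR4 were lowest in both groups of the lapatinib set, RET was highest in both PF04554878 groups, KITLG was highest in untreated, and MDK was near the cutoff in untreated and Y15 only.

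**Figure D2:**
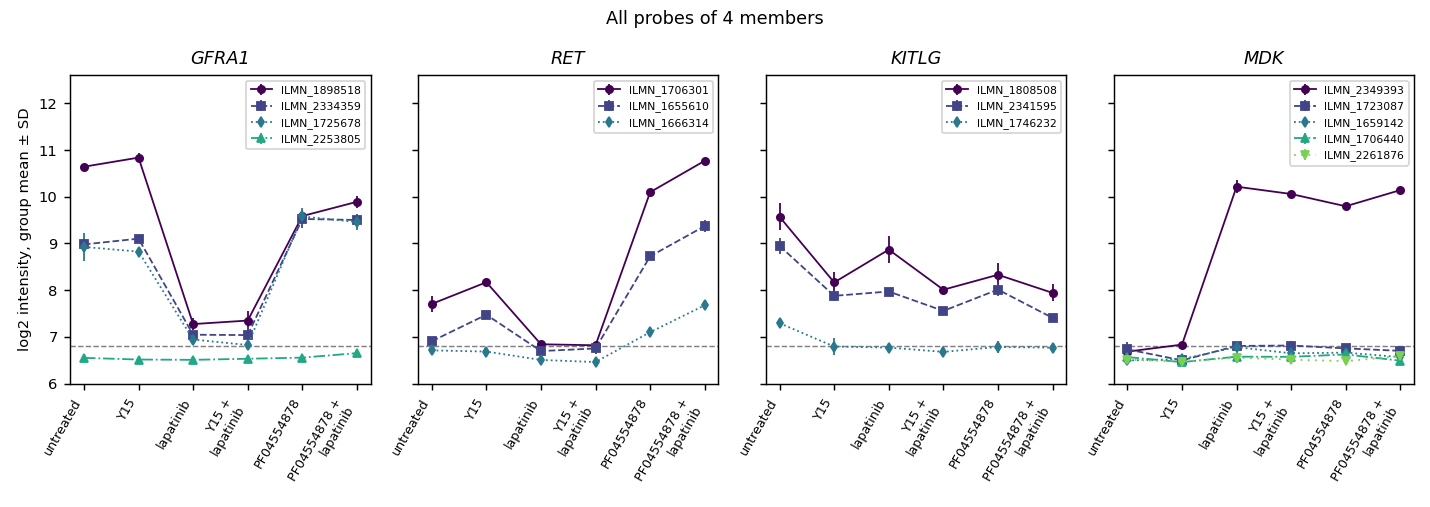
Group mean ± SD over 2 arrays of the log2 intensity (vertical axis) of all probes of GFRA1, RET, KITLG and MDK in the 6 groups, with the background cutoff (dashed line) and lines that only join the means of a probe. The GFRA1 probes fell apart in the PF04554878 groups, where the brightest lay below its untreated mean of 10.64 and 2 others lay above theirs, and a single MDK probe left the background.

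KITLG, the ligand of KIT, was highest in the untreated arrays and lower in all 5 treated groups. Its brightest probe, ILMN_1808508, read 9.77 and 9.37 in untreated, 8.33 and 8.00 with Y15, 8.66 and 9.07 with lapatinib, and 7.95 and 8.07 with Y15 plus lapatinib. It read 8.50 and 8.16 with PF04554878 and 7.81 and 8.07 with PF04554878 plus lapatinib. The 2 untreated arrays lay above the other 10, and the 4 lowest groups each overlapped the next one in the order. Against untreated, Y15 was 2.65-fold lower on this probe, and the dimmer probes gave log2 differences of -1.07 and -0.50. ILMN_2341595, the second probe, read 8.83 and 9.07 in untreated and between 7.39 and 8.11 on the other 10 arrays. ILMN_1746232 read 7.29 and 7.30 in untreated and between 6.61 and 6.93 elsewhere.

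KIT, the receptor of KITLG, was not above background on any array. Its probes ILMN_1790160 and ILMN_2229379 gave 24 values between 6.36 and 6.68. The ligand was thus measured on all 12 arrays and the transcript of its receptor on 0.

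MDK was near background in 2 groups and bright in the other 4. ILMN_2349393 read 6.64 and 6.72 in untreated and 6.87 and 6.80 with Y15. It read 10.31 and 10.12 with lapatinib, 10.04 and 10.08 with Y15 plus lapatinib, 9.76 and 9.84 with PF04554878, and 10.12 and 10.17 with PF04554878 plus lapatinib. No array of the 8 bright ones came near the 4 dim ones. Because both untreated arrays lay under the cutoff, folds against untreated are lower bounds, with the dim side set at the cutoff. PF04554878 was at least 7.93-fold higher and PF04554878 plus lapatinib at least 10.1-fold higher, both given as descriptions. The other 4 MDK probes read 6.41 to 6.88 over all arrays, with group means of 6.46 to 6.81, so the change rests on 1 probe of 5.

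FGFR4 is a receptor of fibroblast growth factors. ILMN_2410713 read 8.47 and 8.89 in untreated, 9.04 and 8.89 with Y15, 7.32 and 7.15 with lapatinib, and 7.12 and 6.95 with Y15 plus lapatinib. It read 7.74 and 8.27 with PF04554878 and 8.80 and 8.93 with PF04554878 plus lapatinib. The 4 arrays of the lapatinib set were lowest, and Y15, PF04554878 plus lapatinib and untreated overlapped at the top. The second probe, ILMN_1730355, read 7.39 and 7.62 in untreated, 6.81 and 6.97 with PF04554878, and 7.31 and 7.69 with PF04554878 plus lapatinib.

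MET, the receptor of hepatocyte growth factor, had 1 probe and the narrowest range of the 6 tested genes. ILMN_1715175 read 7.68 and 7.86 in untreated, 7.94 and 7.89 with Y15, 7.20 and 7.22 with lapatinib, and 7.19 and 7.32 with Y15 plus lapatinib. It read 7.61 and 7.55 with PF04554878 and 7.59 and 7.77 with PF04554878 plus lapatinib. The lapatinib set was again lowest, below all 8 other arrays.

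FGFR1, FGFR2 and AXL, the receptor of GAS6, were not measurable on these arrays. Together with KIT they had 7 probes, and all 84 values lay between 6.27 and 6.77, with 0 above the cutoff. FGFR2 had the widest span, from 6.27 in an untreated array to 6.77 in a lapatinib array, both below background, so no order is read from it. A probe at background gives an upper limit on its signal and does not show that the transcript was absent.

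**Figure D3:**
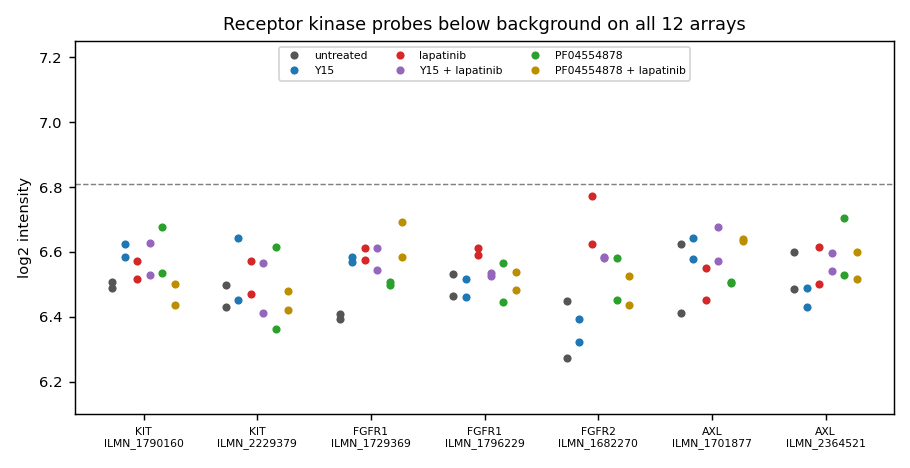
Log2 intensity (vertical axis) of the 7 probes of KIT, FGFR1, FGFR2 and AXL (horizontal axis) on the 12 arrays (points, coloured by group), with the background cutoff of 6.808 (dashed line). All points lie between 6.27 and 6.77, below the cutoff.

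With Y15 alone RET rose, and KITLG was lower as described above. RET was 0.46 ± 0.10 log2 units higher than in untreated (adjusted p = 0.0126 from limma over 11438 genes), with both Y15 arrays above both untreated arrays. ILMN_1655610 gave 0.57 and the dimmest RET probe stayed below background in both groups. FGFR4 and MET did not pass, at 0.28 (adjusted p = 0.317, 95% interval -0.05 to 0.62) and 0.14 (0.444). GFRA1 gave 0.19 and MDK 0.15, descriptions with no test, since their choice used the untreated arrays. Without KITLG, 1 of 5 tested members was called, beside 5.46% of all genes, 2.95% higher and 2.51% lower. That count includes GFRA1 and MDK and is a description. The RET call ended without either Y15 array (adjusted p = 0.12 and 0.0601) and in a fit of these groups alone (0.128), with adjusted p from 0.00456 to 0.128 over its 17 alternatives.

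Adding Y15 to lapatinib lowered KITLG and moved no other tested member past the threshold. KITLG fell by 0.86 ± 0.17 on the log2 scale, 1.81-fold (adjusted p = 0.00479), with both combination arrays below both lapatinib arrays. ILMN_2341595 gave -0.42 (adjusted p = 0.0183 with every probe as a feature) and the dimmest probe was below background in both groups. RET, which had been higher with Y15 alone, differed by -0.02 (95% interval -0.23 to 0.18). It lay at the background cutoff in both groups, where small differences could not be shown. GFRA1 differed by 0.08 (-0.16 to 0.31), a description, since its choice used the lapatinib arrays. FGFR4 gave -0.20 (adjusted p = 0.470), MDK -0.16 (0.312) and MET 0.05 (0.829). The count of 1 of 6 includes GFRA1 and is a description, beside 11.4% of all genes, 6.14% higher and 5.31% lower. Without lapatinib replicate 2 the KITLG difference was -0.65 (adjusted p = 0.0652, with 0.000968 to 0.0652 over its 18 alternatives).

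Adding lapatinib to PF04554878 was accompanied by higher RET, FGFR4 and MDK. RET rose by 0.67 ± 0.10 (1.59-fold, adjusted p = 0.00033), and its other probes gave 0.65 and 0.58. FGFR4 rose by 0.86 ± 0.16 (1.82-fold, adjusted p = 0.0025), with 0.61 on its second probe. MDK rose by 0.35 ± 0.09, a description with no test, since the choice of MDK used both groups. GFRA1 gave 0.30 (adjusted p = 0.107), KITLG -0.39 (0.180, 95% interval -0.74 to -0.03) and MET 0.10 (0.628), none of which passed, although ILMN_2341595 of KITLG gave -0.61 (0.00171 with every probe as a feature). The count of 3 of 6, all higher, includes MDK and is a description, beside 8.97% of all genes, 4.14% higher and 4.83% lower. MDK passed the threshold in the fit but not in 6 of its 17 alternatives, among them without any one of the 4 arrays. The FGFR4 call ended after background subtraction (1.22, adjusted p = 0.0529).

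In these 3 comparisons, which share no array, KITLG gave -1.40, -0.86 and -0.39, and RET gave 0.46, -0.02 and 0.67. With Y15 added to lapatinib, RET lay at the background cutoff in both groups. The added agent differed, so the values are set side by side without a test between them.

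**Figure D4:**
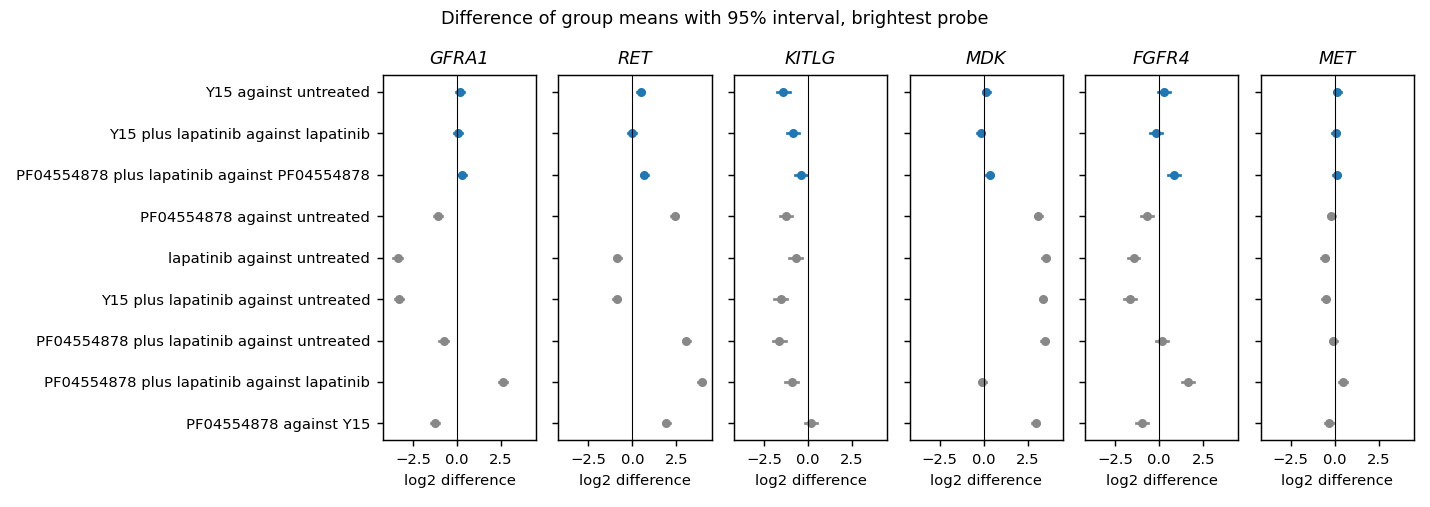
Difference of group means in log2 units (horizontal axis) with its 95% interval from the fit for the 6 tested genes in 9 comparisons (rows), with comparisons inside a set of arrays in blue and those across sets in grey. Within sets the KITLG points lie to the left of 0 and the other points lie close to 0 or to its right, while across sets RET, MDK and GFRA1 reach differences of over 2 log2 units.

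The comparisons with untreated all share the same 2 untreated arrays and, except that of Y15, cross the sets. The choice of KITLG and GFRA1 used the untreated arrays. In the comparisons with untreated that cross sets, their values are therefore descriptions with no test, as are the counts that include them. With PF04554878, RET rose and FGFR4 and KITLG fell, beside the higher MDK already described, and GFRA1 was lower on its brightest probe. RET was 5.25-fold higher (2.39 ± 0.10, adjusted p = 5.63e-11). GFRA1 differed by -1.06 ± 0.11 on its brightest probe, with the opposite sign on the other tested probes as given above. KITLG differed by -1.24 ± 0.17, FGFR4 by -0.68 ± 0.16 (adjusted p = 0.00222) and MET by -0.19 (0.125). Without MDK, the 4 calls of 5 stand against 45.7% of all genes, 23.9% higher and 21.8% lower. FGFR4 lost its call without PF04554878 replicate 1 (-0.42, adjusted p = 0.0505, with 0.000284 to 0.0505 over its 18 alternatives).

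With lapatinib, FGFR4, RET, KITLG and MET fell, beside the lower GFRA1 already described. They are 4 of the 4 tested members other than GFRA1 and MDK, where 56.5% of all genes were called, 28.2% higher and 28.3% lower. MDK was at least 10.6-fold higher, which is given as a description, because its probe passed the filter only through groups where it is high. FGFR4 fell by 1.45 ± 0.16 (2.73-fold, adjusted p = 1.22e-06), and RET by 0.86 ± 0.10 to the cutoff (1.52e-06). With every probe as a feature, ILMN_1655610 of RET gave -0.21 (adjusted p = 0.0813) and was not called. The dimmest RET probe was below background in both groups. KITLG fell by 0.70 ± 0.17, a description, and MET by 0.57 ± 0.10 (adjusted p = 0.000131). With so many genes called, the count is given as a description.

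Y15 plus lapatinib gave the same directions against untreated, with 5 of the 5 tested members other than MDK called beside 55.1% of all genes, 27.7% higher and 27.4% lower. MDK was at least 9.52-fold higher, given as a description for the same reason. GFRA1 differed by -3.29 ± 0.11 (9.81-fold) and KITLG by -1.56 ± 0.17, both descriptions, and FGFR4 by -1.65 ± 0.16 (adjusted p = 3.00e-07). RET differed by -0.89 ± 0.10 (adjusted p = 1.20e-06) and MET by -0.52 ± 0.10 (0.000293). ILMN_1655610 of RET gave -0.15 (0.200 with every probe as a feature), and the dimmest RET probe was below background in both groups.

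PF04554878 plus lapatinib differed from untreated in 3 of the 5 tested members other than MDK, where 46.7% of all genes were called, 23.9% higher and 22.8% lower. RET was 8.37-fold higher (3.06 ± 0.10, adjusted p = 3.55e-12), the highest level of RET in the series. KITLG was 3.09-fold lower (-1.63 ± 0.17). GFRA1 differed by -0.75 ± 0.11 on its brightest probe and by 0.52 and 0.53 on the other 2 tested probes. FGFR4 gave 0.18 (adjusted p = 0.378) and MET -0.09 (0.479), and the groups overlapped for both.

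Against lapatinib alone, PF04554878 plus lapatinib carried higher RET, GFRA1, FGFR4 and MET and lower KITLG. RET was 15.2-fold higher (3.93 ± 0.10, adjusted p = 3.83e-14), against a lapatinib level at the cutoff. GFRA1 was 6.14-fold higher (2.62 ± 0.11), and all 3 tested probes agreed, with 2.46 and 2.52 on the dimmer ones. The GFRA1 values are descriptions, since the choice of GFRA1 used the lapatinib arrays. FGFR4 was 3.10-fold higher (1.63 ± 0.16, adjusted p = 3.05e-07) and MET 1.39-fold higher (0.48 ± 0.10, 0.000567). KITLG fell by 0.93 ± 0.17 (adjusted p = 0.000186). MDK differed by -0.07, a description, since its choice used the PF04554878 plus lapatinib arrays. In this comparison, which crosses sets, 57.7% of all genes were called, 29.2% higher and 28.5% lower, so the count of 5 of 6 is given as a description.

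The FAK inhibitors at the same dose of 1 µM differed in 4 of the 5 tested members other than MDK, where 47.9% of all genes were called, 24.8% higher and 23.2% lower. Between PF04554878 and Y15, RET was 3.81-fold higher with PF04554878 (1.93 ± 0.10, adjusted p = 4.85e-10). MDK was 7.79-fold higher (2.96 ± 0.09), a description with no test. FGFR4 differed by -0.97 ± 0.16 (adjusted p = 0.000116) and MET by -0.33 ± 0.10 (0.0105). GFRA1 differed by -1.25 ± 0.11 on its brightest probe (adjusted p = 2.55e-07) and by 0.42 and 0.75 on the other tested probes. KITLG gave 0.16 (95% interval -0.19 to 0.52), and the groups overlapped. Its choice used the Y15 arrays, so this value and the count that includes it are descriptions. The MET call ended without Y15 replicate 1 or PF04554878 replicate 2 (adjusted p = 0.07 and 0.0651, with 0.00546 to 0.07 over its 18 alternatives).

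Whether an inhibitor's difference changed in the presence of lapatinib was tested as the combination minus the FAK inhibitor minus lapatinib plus untreated. For Y15, 0 of 6 tested members passed in limma, while 4 had an unadjusted p under 0.05, and 3.91% of all genes were called, 1.65% higher and 2.26% lower. Those 4 were RET at -0.49 ± 0.14 (adjusted p = 0.0566), FGFR4 at -0.48 (0.224), KITLG at 0.55 and MDK at -0.31. RET lay at the cutoff in lapatinib and in Y15 plus lapatinib, where small differences could not be shown. On ILMN_2341595 the KITLG value was 0.65. The KITLG and MDK values hold differences that the choice of members or the filter used, and are given as descriptions.

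For PF04554878, 3 of the 4 tested members other than GFRA1 and MDK passed, and 45.5% of all genes did, 22.4% higher and 23.2% lower. GFRA1 and MDK are described without a test, since their values hold differences known when the members were chosen. GFRA1 gave 3.67 ± 0.16, with 1.91 and 1.86 on the other tested probes. FGFR4 gave 2.31 ± 0.22 (adjusted p = 6.71e-07), RET 1.54 ± 0.14 (2.56e-07) and MET 0.67 ± 0.14 (0.00097). MDK gave -3.19 ± 0.13, or -3.06 with the dim untreated arrays set at the cutoff, and each agent alone stood at least 7.93-fold above untreated. KITLG did not pass on its brightest probe (0.31, adjusted p = 0.296). With every probe as a feature, ILMN_2341595 gave 0.37 and was not called, while the dimmest, ILMN_1746232, gave 0.51 and was called. The contrast holds untreated arrays used in the choice of KITLG, so these KITLG values are descriptions. The contrast takes its groups from all 3 sets, so the inhibitor and the set cannot be told apart in it.

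The other receptor kinases outside the ERBB family were read from a list of 47, of which 22 were tested. Genes that passed the filter only through groups where they were high are counted in this and the later lists, so the shares are descriptions. With Y15 alone 1 rose and 0 fell, or 4.55% of those tested beside 5.46% of all genes. With PF04554878, 4 rose and 4 fell (36.4%), and with lapatinib 6 rose and 2 fell (36.4%), below the 45.7% and 56.5% of all genes. The median log2 difference was -0.04, -0.06 and -0.02 in these comparisons, and between -0.01 and 0.01 over all genes. DDR1, a collagen receptor, rose with Y15 by 0.57 ± 0.10 (adjusted p = 0.00397) and with lapatinib added to PF04554878 by 0.59 ± 0.10 (0.0012). The first of those calls ended in a fit of the compared groups alone. ROR2, a WNT5A receptor, left the background with PF04554878 (at least 2.07-fold) and with lapatinib (at least 1.86-fold). Like MDK, ROR2 lay below background in untreated, so these folds are descriptions with no test. EPHB4, an ephrin receptor, differed by -1.39 ± 0.11 with PF04554878 (adjusted p = 4.94e-08) and by -1.35 ± 0.11 with lapatinib (3.00e-08).

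Ligands of these receptors were listed for 60 genes, and 22 were tested. With Y15 alone 1 rose and 1 fell (9.09%), with PF04554878 5 and 5 (45.5%), and with lapatinib 6 and 9 (68.2%), beside 5.46%, 45.7% and 56.5% of all genes. The medians were 0.00, -0.10 and -0.06. GAS6, the ligand of AXL, was below background in untreated at a mean of 6.61. It was at least 5.88-fold higher with lapatinib and at least 2.13-fold higher with PF04554878. PROS1, a ligand of the AXL relatives TYRO3 and MERTK, was also below background in untreated and at least 2.52-fold higher with PF04554878. These folds are descriptions with no test, for the reason given for MDK. GAS6 was thus detected in groups where the AXL probes were not. TYRO3 was above background, with group means of 7.2 to 8.3, and MERTK lay near the cutoff, at 6.58 to 6.81. Of the GDNF family, ARTN, which binds GFRA3, was tested and was 0.68 ± 0.11 higher with Y15 plus lapatinib than in untreated (adjusted p = 6.35e-05). NRTN, PSPN and HGF, the ligand of MET, had no probe past the filter, and GDNF was not analysed here.

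Co-receptors were listed for 20 genes, with 12 tested. With Y15 alone 2 rose and 1 fell (25.0%), with PF04554878 3 and 3 (50.0%), and with lapatinib 1 and 2 (25.0%), where 5.46%, 45.7% and 56.5% of all genes were called. The Y15 calls, SDC1 and GFRA2 higher and NRP1 lower, each ended without either Y15 array and in a fit of the compared groups alone. They ended in 5, 4 and 15 alternatives in turn, so the Y15 share rests on calls that did not hold. In the other comparisons inside a set, 0 of 12 passed with Y15 added to lapatinib and 0 of 12 with lapatinib added to PF04554878, where 11.4% and 8.97% of all genes did. CD44, a hyaluronan receptor and partner of MET, had a mean of 6.48 in untreated, below background. It was at least 4.34-fold higher with PF04554878 and at least 3.59-fold higher with lapatinib, given as descriptions with no test. NRP1, a co-receptor of VEGF, fell with lapatinib by 1.73 ± 0.13 (adjusted p = 2.21e-08). GFRA3, the relative of GFRA1 that binds ARTN, was below background in untreated and at least 1.33-fold higher with PF04554878, also a description.

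Adaptors that carry receptor signals were listed for 30 genes, with 20 tested. With Y15 alone 0 rose and 1 fell (5.00%), with PF04554878 5 and 4 (45.0%), and with lapatinib 3 and 10 (65.0%), against 5.46%, 45.7% and 56.5% of all genes. The median with lapatinib was -0.23. IRS1 and IRS2, the docking proteins of insulin-family receptors, fell with lapatinib, IRS1 by 1.85 ± 0.11 (adjusted p = 1.51e-09) and IRS2 at least 3.32-fold. The IRS2 fold is a description, since IRS2 lay below background with lapatinib. GRB10, an adaptor that restrains insulin-family receptors, rose with lapatinib by 1.29 ± 0.10 (adjusted p = 1.78e-08) and further with Y15 added by 0.58 ± 0.10 (0.00186). The latter call ended in 1 of its alternatives.

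Feedback regulators of receptor kinases were listed for 22 genes, with 18 tested. With Y15 alone 1 rose and 1 fell (11.1%), with PF04554878 6 and 0 (33.3%), and with lapatinib 6 and 5 (61.1%). The shares over all genes were 5.46%, 45.7% and 56.5%. The medians were 0.08, 0.19 and -0.17. DUSP5, a phosphatase of ERK, rose with Y15 by 0.81 ± 0.11 (adjusted p = 0.000659), with PF04554878 by 1.06 ± 0.11 (1.23e-06) and with lapatinib by 0.98 ± 0.11 (1.56e-06). LRIG1, which promotes the breakdown of receptor kinases, rose with lapatinib by 1.84 ± 0.10 (3.94e-10) and fell by 0.64 ± 0.10 when Y15 was added to lapatinib (0.00114). PTPN1, a phosphatase of receptor kinases, rose with PF04554878 by 1.29 ± 0.08 (8.19e-09).

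The genes whose profile over the 12 arrays was most like that of a member were found by Pearson correlation of the log2 values. For GFRA1 they were CDCA7 (r = 0.994), SLC27A3 (0.992) and ZHX2 (0.99). For RET they were MIR503HG (0.995), SCD5 (0.993) and SFXN5 (0.993). IGF2BP2 (0.994) led for MDK, LTBP4 (0.984) for FGFR4 and SVIL (0.974) for MET. KITLG stood apart in that only IARS1 came close, at 0.972, with the next gene, NUP160, at 0.906. The 12 arrays form 3 sets, so for members other than KITLG these values largely describe which genes share the pattern of the sets. KITLG differed inside sets, by -1.40 for Y15 against untreated and by -0.86 for Y15 plus lapatinib against lapatinib.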

How the data were processed

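RNA of 12 arrays was measured as log2 probe intensities in a table the authors deposited. The submitters' processing notes name GenomeStudio. The normalization is not given in the sources used here, but the sorted columns lay within 0.0146 of each other, a pattern of quantile normalization. Values ran from 6.196 to 13.9, so folds are compressed, most for dim genes. A second table of raw signals has 24 per-sample columns that match no label and was not used.

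Of 47318 probes, 30111 carried 1 gene symbol, 8 several and 17199 none. The background cutoff was the mode of all values, 6.555, plus 3 SD of 0.0845. Probes above it on at least 2 arrays were kept (15356), and each gene took its probe with the highest mean (11438 genes). Where a group lay below the cutoff on both arrays, the fold is a lower bound. Group means were fitted to all 12 arrays with limma 3.58.1 (lmFit, eBayes) in R 4.3.3, with 6 residual and 9.131 prior degrees of freedom, and adjusted by Benjamini-Hochberg over all genes in each of 11 comparisons at 0.05. The fit was tested on simulated data. Between replicates, the SD across genes was 0.163 for untreated and 0.097 to 0.115 for the other groups, and 9559 to 9791 genes lay above background on each array. The number of arrays limits the precision. Same-numbered arrays did not deviate together (r from -0.332 to 0.132 over 10 pairs of groups), so the numbers were not treated as pairs.

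The members, the gene lists and the tests were chosen with earlier results of these data known. Named were all 10 members and up to 4 genes per list with the smallest adjusted p among those called in a comparison, of which some are printed. The 3 genes most correlated with each tested member were also named, and ESR1 and ERBB2 as a check of the line. Alternatives were other probe filters, every probe as a feature, the compared groups alone, the replicate block, background subtraction and each array left out.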

Additional observations from a re-analysis of the deposited data

Results flagged for a closer look

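In the test of whether the PF04554878 difference changed in the presence of lapatinib, the difference was unequal with and without lapatinib for 5 members, and all 5 values rest on groups from different sets of arrays. The GFRA1 and MDK values are descriptions, since they hold differences known when the members were chosen. GFRA1 gave 3.67 on its brightest probe, with a log2 difference of -1.06 without lapatinib and, for the combination against lapatinib, 2.62 with it. Its other tested probes gave 0.54 and 0.65 without lapatinib and 2.46 and 2.52 with it, so only the brightest changed sign. FGFR4 gave 2.31, with -0.68 without lapatinib and 1.63 with it. RET gave 1.54, with a higher level with and without it, 2.39 and 3.93. MET gave 0.665, with -0.19 and 0.48. MDK gave -3.19, with 3.11 and -0.07. The part of the array set in these values cannot be told apart from that of the inhibitor.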

How the results depend on the processing

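Each of the 66 member differences was recomputed under up to 18 alternatives, 1166 values in all. Of the 42 called differences, 0 changed sign and 6 lost their call somewhere, 14 times in all. Each was followed on the same probe, so a change of sign on another probe of the gene could not be counted. The GFRA1 differences with PF04554878 had such opposite signs, as given above. These counts include the differences given as descriptions.

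Keeping only probes above background on all 12 arrays removed MDK and RET from the test. The count of members called then went from 2 to 1 for Y15 against untreated, from 5 to 3 for PF04554878 against untreated, against Y15 and in its interaction with lapatinib, from 4 to 2 for PF04554878 plus lapatinib against untreated, and from 3 to 1 against PF04554878. A fit of the compared groups alone gave 1 for Y15 against untreated. Background subtraction gave 1 for PF04554878 plus lapatinib against PF04554878, where MDK (0.38) and FGFR4 lost their calls. Every probe as a feature gave 1 for the Y15 interaction, which was KITLG through ILMN_2341595 (0.65), while its brightest probe was not called.

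Leaving out one array at a time gave counts of 1 to 2 for Y15, 4 to 6 for PF04554878 and 4 to 4 for PF04554878 plus lapatinib against untreated. It gave 0 to 1 for Y15 plus lapatinib against lapatinib, 2 to 3 for PF04554878 plus lapatinib against PF04554878, 4 to 5 for PF04554878 against Y15, 0 to 1 for the Y15 interaction and 5 to 5 for that of PF04554878. Without untreated replicate 1 the RET interaction passed (-0.61, adjusted p = 0.0126) and MET with PF04554878 passed (-0.28, 0.0486). Uncalled values that changed sign ran from -0.030 to 0.39 for FGFR4 and from -0.18 to 0.00071 for MET in PF04554878 plus lapatinib against untreated. For Y15 plus lapatinib against lapatinib they ran from -0.066 to 0.22 for GFRA1, from -0.058 to 0.014 for RET and from -0.019 to 0.11 for MET. The others were MDK in PF04554878 plus lapatinib against lapatinib (-0.17 to 0.025), KITLG in PF04554878 against Y15 (-0.0084 to 0.34) and GFRA1 in the Y15 interaction (-0.26 to 0.023).

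With the replicate block, GFRA1 in the Y15 interaction was 0.0546 and MDK for PF04554878 plus lapatinib against PF04554878 was no longer called (0.35). The block fits Y15 plus lapatinib replicate 3 exactly, as the only array with that number. Calls over all genes went from 624 to 354 for Y15 against untreated, from 1309 to 510 for Y15 plus lapatinib against lapatinib and from 447 to 22 for the Y15 interaction. A fit of the compared groups alone gave 65 for the first and 288 for the last, and background subtraction gave 209 for the last. Leaving out single arrays gave 136 to 1171, 299 to 1831 and 29 to 999 for these, and 420 to 1445 against 1026 for PF04554878 plus lapatinib against PF04554878. Of 173 named differences of list genes, each followed on the same probe, 36 lost their call in some alternative and 0 changed sign. With 2 arrays a group, and signal near background for MDK in untreated and RET in the lapatinib set, small differences there could not be shown.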
